A study of Mus musculus with 30 samples.

Results

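The genes described here encode the enzymes that make phosphatidylinositol 3-phosphate (PI3P) and the complex that turns it into PI(3,5)P2, 9 genes chosen by name from the 36103 genes of the count table. They comprise the class III lipid kinase Pik3c3 with its subunits Pik3r4 and Becn1, the class II kinases Pik3c2a, Pik3c2b and Pik3c2g, and the kinase Pikfyve with its partners Fig4 and Vac14. Messenger RNA was sequenced from the liver, the heart and a pair of skeletal muscles, gastrocnemius and diaphragm, of male mice on a pure 129Pas background at 5 weeks, to ask how loss of Mtm1 affects muscle and other organs. The Mtm1-/y animals (Mtm1KO in the labels and plots) carry a constitutive knock-out of the X-linked Mtm1 gene, and the controls were their wild-type (WT) littermates. There were 4 mice in each group, apart from 3 in the Mtm1-/y diaphragm and 3 in the WT liver, which made 15 WT and 15 Mtm1-/y libraries of whole tissue.

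PI3P marks early endosomes and forming autophagosomes, where it recruits proteins with FYVE or PX domains and WIPI proteins. The class III kinase makes most of it on endosomes and at sites of autophagy, and class II kinases add to specific pools. Myotubularin, the product of Mtm1, removes the 3-phosphate from PI3P and PI(3,5)P2, and its loss in people causes X-linked myotubular myopathy. PIKfyve phosphorylates PI3P within a complex in which VAC14 is the scaffold and FIG4 is a phosphatase that reverses the reaction. Loss of any member of that complex leaves cells full of enlarged vacuoles.

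In short, Vac14 rose in the Mtm1-/y gastrocnemius to 1.52 times the WT level. It was the only member that passed the main test for genotype within a tissue. That was 1 of the 8 members tested in this muscle, where 29.0% of all genes passed. In the diaphragm, heart and liver only 0.0119%, 0.00656% and 0.0% of all genes passed, and in the liver Mtm1 itself did not. Pik3c2g had too few counts for the test in the gastrocnemius and heart. Between WT tissues, Fig4 stood highest in the heart, Pik3c2b was low in the liver, and Pikfyve and Pik3c2g were highest in the liver. The class III genes and Vac14 differed least between tissues, with the highest WT tissue mean at most 1.49 times the lowest.

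The sequences before the start sites of Vac14, Fig4 and Pik3c2g are shown here because the results turn on these genes, the first for genotype and the others for tissue. Each is the 250 bases before an annotated start, 5′ to 3′ on the gene's strand, from RefSeq on GRCm38.p6, with CG pairs in capitals.
Vac14, chr8:110618317-110618566, plus strand: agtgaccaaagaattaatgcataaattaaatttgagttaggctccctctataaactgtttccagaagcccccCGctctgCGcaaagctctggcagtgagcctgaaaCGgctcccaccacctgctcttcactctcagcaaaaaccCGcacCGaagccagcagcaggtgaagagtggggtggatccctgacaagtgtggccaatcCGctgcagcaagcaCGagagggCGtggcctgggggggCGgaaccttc
Fig4, chr10:41303242-41303491, minus strand: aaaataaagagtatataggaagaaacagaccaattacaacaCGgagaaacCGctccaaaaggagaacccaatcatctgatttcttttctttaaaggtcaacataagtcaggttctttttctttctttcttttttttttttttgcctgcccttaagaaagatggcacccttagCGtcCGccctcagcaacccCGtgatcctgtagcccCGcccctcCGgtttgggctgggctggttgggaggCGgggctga
Pik3c2g, upstream start, chr6:139613822-139614071, plus strand: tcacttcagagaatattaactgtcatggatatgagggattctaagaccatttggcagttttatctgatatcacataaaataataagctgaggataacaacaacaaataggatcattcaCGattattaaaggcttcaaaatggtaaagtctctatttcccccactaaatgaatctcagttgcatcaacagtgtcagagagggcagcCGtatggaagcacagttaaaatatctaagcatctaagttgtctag
Pik3c2g, downstream start, chr6:139841195-139841444, plus strand: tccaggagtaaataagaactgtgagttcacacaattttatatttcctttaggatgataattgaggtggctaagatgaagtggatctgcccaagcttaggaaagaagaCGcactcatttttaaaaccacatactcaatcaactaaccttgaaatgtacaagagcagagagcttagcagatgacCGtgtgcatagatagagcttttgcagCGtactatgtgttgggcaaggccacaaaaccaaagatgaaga
The 2 Pik3c2g windows held 2 and 3 CG pairs, with a GC content of 36% and 40%. Both lay inside the gene as counted, which begins at chr6:139587221. A stretch of bases shortly past the upstream start was in no GENCODE transcript of the gene. Which start the liver counts came from was not tested. Vac14 held 9 CG pairs at 55.6% GC and Fig4 held 8 at 46.4%, where the median of all 32851 such windows was 6 CG pairs and 52.4%. Pik3c2a, with 25 CG pairs at 71.2% GC, and Pik3c2b, with 18 at 67.6%, were the richest of the 8 member windows, which covered 7 of the 9 genes.

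Short motifs were searched on both strands of those windows extended by 50 bases past the start, and they were chosen after the windows had been read. The palindrome TCACGTGA, which contains CACGTG, lay 31 bases into the Vac14 transcript and in no other member window, and 0.974% of all windows held it. It is shown here in capitals within 30 bases of the Vac14 first exon, chr8:110618586-110618615.
Vac14, around TCACGTGA, plus strand: tgctcgcggcgTCACGTGAcctgagtaaca
Vac14 also held CCAAT 53 bases before its start, a motif found in 37.4% of all windows, and GGGCGG 13 bases before it, found in 35.7%. TATAAA, found in 13.6% of all windows, began 202 bases before the Vac14 start. CACGTG alone is in 7.15% of all windows and was in no other member window. Of the remaining motifs, a MEF2 consensus (in 3.69% of windows), the HNF1 palindrome (0.00913%) and CAAGGTCA (1.56%) were in no member window. Fig4 held CCAAT 2 times and GGGCGG 2 times, the upstream Pik3c2g window held none of the 8 motifs, and the downstream window held only TATAAA, 215 bases before the start on the other strand. Such matches describe the letters of the window and not the use of a site.

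The count totals ran from 24873817 to 44289343 reads per library. Levels are given as CPM, the counts of a gene for each 1e6 counts of its library, after scaling with TMM, which sets the bulk of genes equal between libraries. Mtm1 itself was lower in every Mtm1-/y library, at 3.49 to 8.19 CPM against 15.9 to 26.9 CPM in WT, with no overlap in any tissue. The tissues carried their defining transcripts. Fast fibre markers (12 genes) summed to 187000 to 265000 CPM of the library total in the gastrocnemius, cardiomyocyte markers (12 genes) to 71700 to 94200 in the heart and hepatocyte markers (18 genes) to 180000 to 215000 in the liver. Hepatocyte markers also reached 654 to 50700 CPM in the WT diaphragm and 1180 to 62600 in the Mtm1-/y diaphragm, with none of the 18 at 0, against at most 200 in the gastrocnemius and heart. Albumin (Alb) exceeded 10000 CPM in 4 diaphragm libraries, WT replicates 1, 2 and 4 and Mtm1-/y replicate 2. In bulk tissue, fewer cells of a type and less RNA per cell cannot be told apart.

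Vac14 (ENSMUSG00000010936, mm10 chr8:110618585-110720398, plus strand) encodes the scaffold that holds PIKfyve and FIG4 together. In the WT gastrocnemius its level was 31.3, 33.5, 27.5 and 33.4 CPM in replicates 1 to 4, and in the Mtm1-/y gastrocnemius it was 52.7, 41.3, 45.2 and 49.9 CPM. All 4 Mtm1-/y libraries lay above all 4 WT libraries. The means were 31.4 ± 2.79 and 47.3 ± 5.06 CPM (SD, n = 4 each), a log2 fold change (log2FC) of 0.60 (SE 0.0937, 95% interval 0.39 to 0.81, adjusted p = 0.00145 by the quasi-likelihood test of edgeR, adjusted over all genes tested). A gene passes here at an adjusted p under 0.05, and 1 of the 8 members tested did so, where 29.0% of all 15456 genes tested passed in this muscle. In the same contrast, groups that did not overlap were found for 30.6% of all genes.

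The gastrocnemius libraries differed in composition between genotypes, and the part of this in the Vac14 difference was not tested. The 12 fast fibre markers summed to 240000 to 265000 CPM in WT and 187000 to 206000 in Mtm1-/y (2 rose and 10 fell), and none was at 0. The 12 macrophage markers summed to 49.6 to 94.0 CPM in WT and 190 to 234 in Mtm1-/y (11 rose), and the 8 fibroblast markers to 2590 to 7440 and 4270 to 11300 (5 rose). The 14 white adipocyte markers summed to 3170 to 4170 and 3360 to 4400 CPM (8 rose), and the 12 cardiomyocyte markers, of which Nppa was at 0 in WT and Myl7 in Mtm1-/y, to 6140 to 7710 and 1350 to 3370 (3 rose and 2 fell of 8 tested). Without TMM, scaling by library totals moved the median log2FC of all genes from 0.02 to 0.35 and the share of calls that were higher from 48.5% to 92.2%. The Vac14 difference was 0.94 under that scaling and 0.59 above the shifted median, and 7 of the 8 members then passed, all higher, where 53.7% of all genes passed.

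In the diaphragm Vac14 measured 25.2, 25.1, 24.5 and 21.2 CPM in WT and 30.9, 27.9 and 34.2 CPM in Mtm1-/y. The 3 Mtm1-/y libraries again lay above the 4 WT libraries, and 9.94% of all genes had groups apart in this tissue. The log2FC was 0.39 (SE 0.107, 95% interval 0.14 to 0.64, unadjusted p = 0.0081), and it did not pass (adjusted p = 0.293 by edgeR). Without the 4 high-Alb libraries it was 0.41 (SE 0.1798), from 1 WT and 2 Mtm1-/y libraries. Fibroblast markers summed to 2170 to 4680 CPM in the WT and 4880 to 11600 in the Mtm1-/y diaphragm with 0 of 8 passing, and their part in the Vac14 values was not tested. No member passed there, of 9 tested, against 0.0119% of all genes. At an unadjusted p under 0.05 only Vac14 was counted by edgeR, where 10.8% of all genes were. DESeq2 passed 0 members against 1.41% of the genes it fitted, and limma voom 0 against 0.0536%.

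Heart and liver held smaller Vac14 differences. The heart gave 26.0, 27.5, 21.4 and 18.8 CPM in WT and 25.9, 24.8, 30.2 and 28.2 CPM in Mtm1-/y, groups that overlapped (log2FC 0.21, SE 0.1245, adjusted p = 0.559 by edgeR). The liver gave 32.2, 34.7 and 23.2 CPM in WT and 26.3, 27.8, 31.4 and 32.4 CPM in Mtm1-/y, which also overlapped (log2FC -0.04, 95% interval -0.38 to 0.30). The difference of the genotype effect between liver and gastrocnemius was -0.62 (SE 0.1804, 95% interval -1.0 to -0.23, adjusted p = 0.0571 by edgeR), which missed the threshold. It passed in 3 of 7 alternative fits, DESeq2 among them (adjusted p = 0.0285), and the highest adjusted p of these fits was 0.111. With 1 library left out it passed in 2 of 15 fits (adjusted p from 0.0184 to 0.155 by edgeR). The smallest came without WT liver replicate 3, the lowest of the WT livers. For heart against gastrocnemius the difference was -0.37 (95% interval -0.72 to -0.02, adjusted p = 0.119), and for diaphragm against gastrocnemius -0.22 (95% interval -0.54 to 0.09, adjusted p = 0.55).

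Averaged over the 4 tissues in a fit of all 30 libraries, the Vac14 log2FC was 0.29 (SE 0.0645, adjusted p = 0.01 by edgeR), with the group mean higher in Mtm1-/y in 3 of 4 tissues. It was the 1 member of 9 that passed this test, where 4.78% of all genes did. With the replicate number as a block the adjusted p was 0.0942. This mean contains the gastrocnemius libraries and is not a separate observation of the effect.

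**Figure D1:**
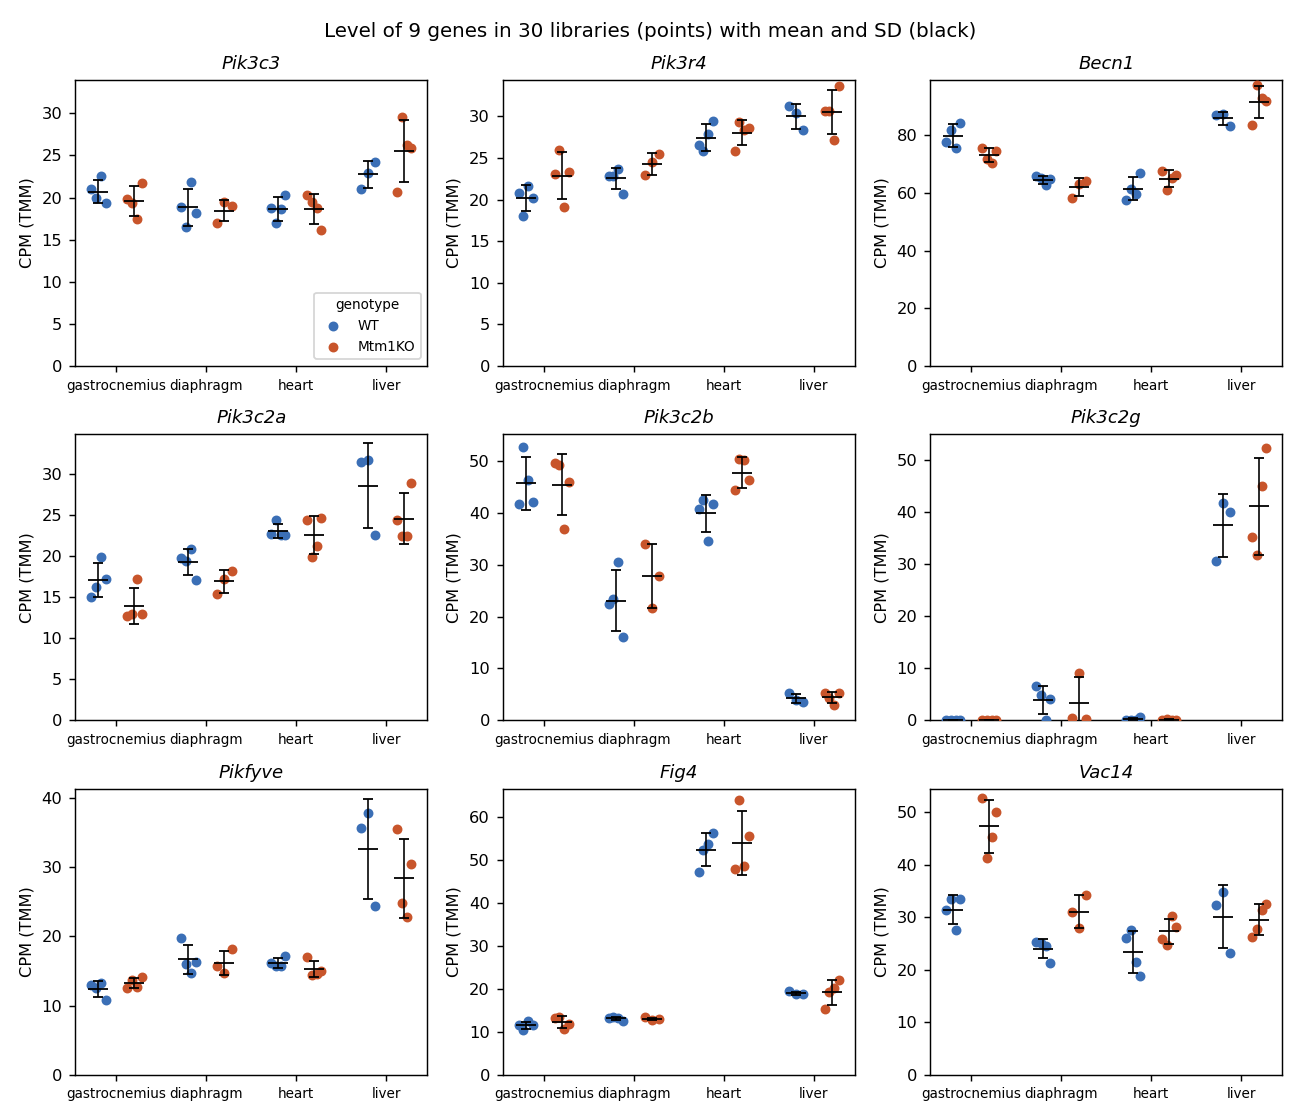
TMM-scaled CPM of each of the 9 genes in every library (points, blue for WT and orange for Mtm1KO) by tissue, with the group mean and SD in black. Vac14 in the gastrocnemius lies at 27.5 to 33.5 CPM in WT and 41.3 to 52.7 CPM in Mtm1KO, Fig4 lies at 47.1 CPM or more in all heart libraries and at most at 22.1 CPM elsewhere, and Pik3c2g spreads from near 0 upwards in the diaphragm.

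The other 2 members of the PIKfyve complex did not pass for genotype in any tissue, where outside the gastrocnemius at most 0.0119% of all genes did. Pikfyve (ENSMUSG00000025949, chr1:65186683-65278695, plus strand), the kinase, gave 13.0, 12.5, 13.3 and 10.8 CPM in the WT gastrocnemius and 12.6, 13.6, 12.7 and 14.1 CPM in Mtm1-/y. Fig4 (ENSMUSG00000038417, chr10:41188172-41303260, minus strand), the phosphatase, gave 11.6, 10.4, 12.5 and 11.6 CPM in WT and 13.1, 13.6, 10.6 and 11.9 CPM in Mtm1-/y in that muscle. Both pairs of groups overlapped. The level of Vac14 relative to its partners was also taken inside each library, per kilobase of transcript, where the scaling cancels. The ratio of Vac14 to Pikfyve in the gastrocnemius was 9.38 ± 1.58 in WT and 13.1 ± 1.73 in Mtm1-/y (SD, n = 4 each), with ranges of 7.57 to 11.3 and 11.1 to 15.3 that overlapped. In the diaphragm that ratio was 5.33 ± 0.707 (n = 4) and 7.02 ± 0.173 (n = 3), and the ratio of Vac14 to Fig4 was 1.96 ± 0.11 and 2.55 ± 0.254, and the values of neither ratio overlapped between genotypes. The share of all such ratios that do so was not computed, so nothing is read from it. Fig4 over Pikfyve averaged 11.1 in the WT heart and 2.07 to 3.2 in the other WT tissues.

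**Figure D2:**
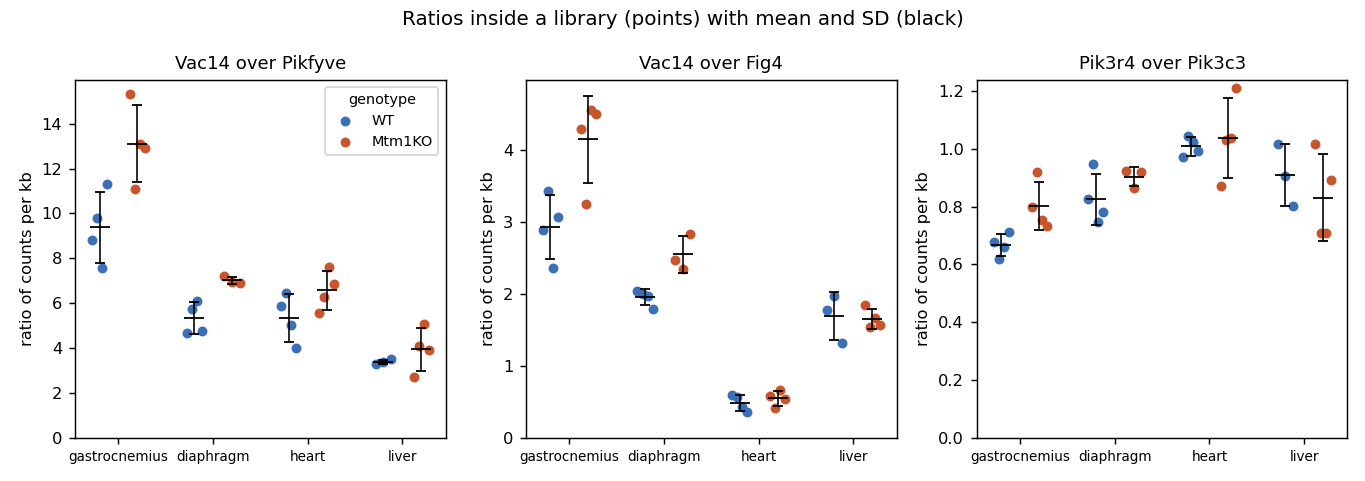
Ratios of counts per kilobase inside each library (points) for Vac14 over Pikfyve, Vac14 over Fig4 and Pik3r4 over Pik3c3, by tissue and genotype, with mean and SD in black. Vac14 over Pikfyve in the diaphragm is at 4.69 to 6.11 in WT and 6.91 to 7.21 in Mtm1KO. In the gastrocnemius it overlaps, at 7.57 to 11.3 and 11.1 to 15.3. The share of all such ratios that do not overlap was not computed. Vac14 over Fig4 is lowest in the heart, with means of 0.484 in WT and 0.55 in Mtm1KO.

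For the class III kinase, no difference between genotypes passed in any tissue, where outside the gastrocnemius at most 0.0119% of all genes did. Pik3c3 (ENSMUSG00000033628, chr18:30272747-30348126, plus strand) encodes VPS34, the catalytic subunit, and in the gastrocnemius it was 21, 19.9, 22.5 and 19.4 CPM in WT and 19.8, 19.4, 17.4 and 21.7 CPM in Mtm1-/y. Pik3r4 (ENSMUSG00000032571, chr9:105642978-105687657, plus strand), the regulatory subunit VPS15, was 20.8, 18, 21.7 and 20.2 CPM in WT and 23.1, 26.0, 19.2 and 23.3 CPM in Mtm1-/y (log2FC 0.19, SE 0.0992, adjusted p = 0.171 by edgeR). The groups overlapped for both genes. Without Mtm1-/y replicate 3, the lowest Mtm1-/y library for Pik3r4, its log2FC was 0.28 and passed (adjusted p = 0.0456). The ratio of Pik3r4 to Pik3c3 per kilobase was 0.62 to 0.712 in WT and 0.734 to 0.919 in Mtm1-/y gastrocnemius, for which no background share of ratios was computed either.

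Becn1 (ENSMUSG00000035086, chr11:101285952-101302286, minus strand) encodes Beclin 1, which joins the class III complex in autophagy and endosomal sorting. It was 77.6, 81.8, 75.7 and 84.4 CPM in the WT gastrocnemius and 75.7, 71.9, 70.5 and 74.5 CPM in Mtm1-/y. Only WT replicate 3 and Mtm1-/y replicate 1 met, at 75.7 CPM, and the log2FC was -0.11 (adjusted p = 0.162 by edgeR). With library totals in place of TMM the direction turned, to 0.22 (adjusted p = 0.00613), which was -0.13 relative to the shifted median of all genes. Becn1 shares 3104 exonic bases with Cntd1 on the opposite strand, and whether the counting used strand is not given in the sources used here.

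Of the class II kinases, Pik3c2a (ENSMUSG00000030660, chr7:116337265-116443449, minus strand) acts on endosomes and clathrin-coated membranes. It did not pass between genotypes in any tissue, where outside the gastrocnemius at most 0.0119% of all genes did. In the gastrocnemius it was 15, 16.2, 19.9 and 17.2 CPM in WT and 12.7, 12.9, 17.2 and 12.9 CPM in Mtm1-/y. Mtm1-/y replicate 3 lay inside the WT range and the other 3 below it. The log2FC was -0.28 (adjusted p = 0.121 by edgeR), and without that replicate it was -0.39 and passed (adjusted p = 0.0235). With library totals the log2FC was 0.06 (adjusted p = 0.739), which is -0.29 relative to the shifted median. The mean over the 4 tissues was -0.18 (SE 0.0616), with an adjusted p of 0.0856 by edgeR, 0.0371 by DESeq2 and 0.0282 by limma voom. Pik3c2a shares 1369 exonic bases with Gm44777 on the opposite strand.

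Pik3c2b (ENSMUSG00000026447, chr1:133045667-133108687, plus strand) encodes the class II beta enzyme. In the heart it was 40.7, 42.5, 34.6 and 41.8 CPM in WT and 44.3, 50.3, 50.1 and 46.3 CPM in Mtm1-/y. The groups did not overlap, which held for 1 of the 8 members tested in the heart and for 4.17% of all genes. The log2FC was 0.25 (SE 0.0807, unadjusted p = 0.0126, adjusted p = 0.546 by edgeR). In the gastrocnemius it was 41.6, 52.7, 46.2 and 42.2 CPM in WT and 49.7, 49.3, 36.9 and 46.0 CPM in Mtm1-/y, with overlap. In the heart 0 of 8 members passed by edgeR, where 0.00656% of all genes did, and 1, Pik3c2b, had an unadjusted p under 0.05, where 8.88% of all genes did. In the liver 0 of 9 passed, where 0.0% of all genes did, and none had an unadjusted p under 0.05, where 4.24% of all genes did. DESeq2 passed 0 members in the heart and in the liver, against 0.288% and 0.0914% of the genes it fitted, and limma voom 0 in both, against 0.00656% and 0.0%.

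The differences of the genotype effect between tissues passed for 0 of 8 members for heart against gastrocnemius, 0 of 9 for diaphragm against gastrocnemius and 0 of 9 for liver against gastrocnemius by edgeR. The background was 19.8%, 0.28% and 6.34% of all genes. At an unadjusted p under 0.05, edgeR counted 2 members for the heart (Becn1 and Vac14), 0 for the diaphragm and 3 for the liver (Becn1, Pik3c2g and Vac14), where 34.7%, 12.8% and 22.3% of all genes were counted. DESeq2 passed Becn1 for the heart, 0 members for the diaphragm and Vac14 for the liver, against 12.6%, 1.13% and 5.92% of the genes it fitted. The voom fit passed Becn1 for the heart and 0 members for the others, against 24.0%, 4.49% and 8.1%. The Becn1 difference for heart against gastrocnemius was 0.20 (adjusted p = 0.115 by edgeR, 0.023 by DESeq2 and 0.0215 by limma voom), and with library totals its sign turned, to -0.21 (adjusted p = 0.0836). These 3 contrasts share the gastrocnemius libraries.

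**Figure D3:**
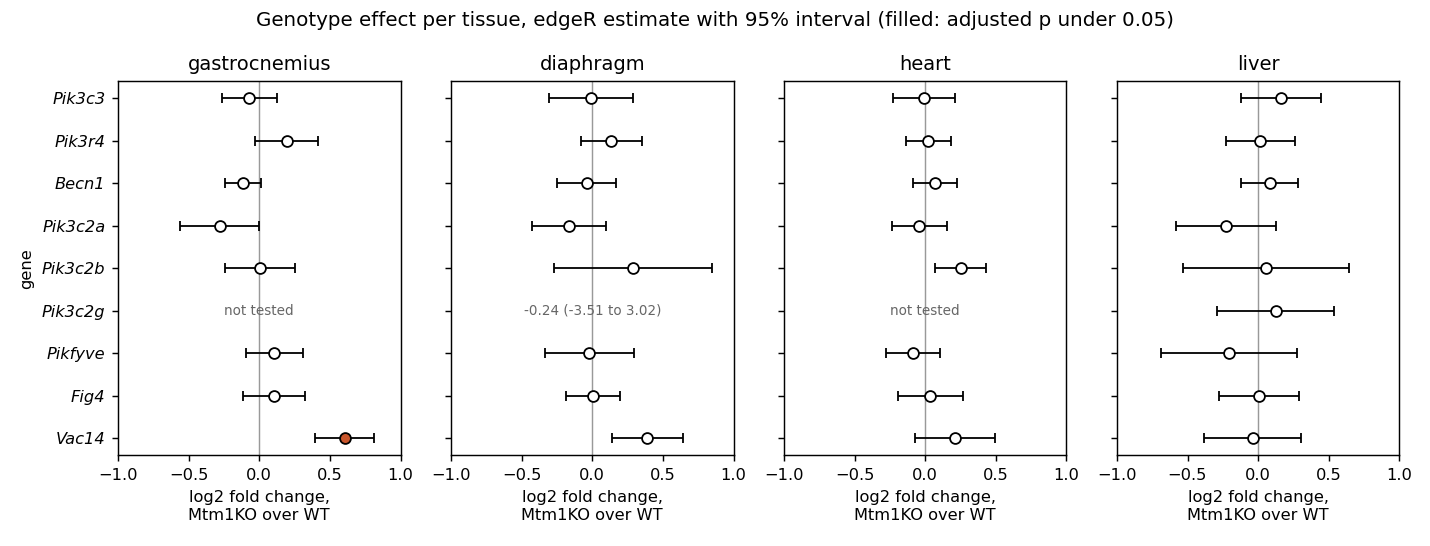
Log2 fold change of Mtm1KO over WT with its 95% interval for each gene in each tissue, as estimated by edgeR, with filled points for an adjusted p under 0.05. Vac14 in the gastrocnemius (0.60) is the only filled point, and Pik3c2g had too few counts for the test in the gastrocnemius and heart and is written out in the diaphragm (-0.24, -3.51 to 3.02), where its interval leaves the axis.

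Between WT tissues the members separated into broadly and unevenly expressed genes. These contrasts come from 1 fit of the 15 WT libraries, and contrasts with a tissue in common share its libraries. Fig4 was 47.1, 52.3, 53.8 and 56.4 CPM in the WT heart, against 18.8 to 19.4 CPM in the liver, 12.6 to 13.4 in the diaphragm and 10.4 to 12.5 in the gastrocnemius. Every heart library lay above every library of the other tissues, and the Mtm1-/y hearts, which that fit did not use, were at 48.0, 63.9, 48.6 and 55.6 CPM. The WT mean was 4.56 times higher in the heart than in the gastrocnemius (log2FC 2.15, adjusted p = 2.8e-11). Against the diaphragm the log2FC was 1.99 (adjusted p = 7.53e-11), and liver against heart gave -1.50 (adjusted p = 7.13e-10). The heart was higher under every alternative run, with log2FC of 2.09 to 2.74 over the gastrocnemius. The order was heart, liver, diaphragm and gastrocnemius. Diaphragm against gastrocnemius did not pass (log2FC 0.15, adjusted p = 0.0806 by edgeR). It passed with library totals (0.67, adjusted p = 2.14e-05 by edgeR) and in 6 of 15 fits with 1 library left out. Liver over diaphragm (log2FC 0.49) was 0.01 with library totals.

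Pikfyve was highest in the liver, at 35.7, 37.8 and 24.3 CPM in WT, against 14.7 to 19.7 in the diaphragm, 15.6 to 17.1 in the heart and 10.8 to 13.3 in the gastrocnemius. Liver replicate 3 was the lowest of its group and still lay above every library of the other WT tissues. The log2FC was 1.32 for liver against gastrocnemius (adjusted p = 1.09e-06), 0.98 against the heart and 0.92 against the diaphragm. The heart exceeded the gastrocnemius by 0.34 (adjusted p = 0.0403), a call that leaving out any 1 of 7 of the 8 heart and gastrocnemius libraries ended.

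Pik3c2b was lowest in the liver. Its WT means were 45.7 ± 5.1 CPM in the gastrocnemius, 39.9 ± 3.6 in the heart and 23.1 ± 5.95 in the diaphragm (SD, n = 4 each), and 4.23 ± 0.876 in the liver (n = 3). The liver libraries were 5.23, 3.89 and 3.58 CPM in WT and 5.26, 4.26, 2.97 and 5.21 CPM in Mtm1-/y, and the lowest library of any other tissue was at 16.1 CPM. The gastrocnemius mean was 10.8 times the liver mean, and liver against gastrocnemius gave a log2FC of -3.50 (adjusted p = 2.23e-09), -3.55 to -3.44 over the alternatives. Heart against gastrocnemius did not pass, and its sign turned with library totals (0.37). Diaphragm against gastrocnemius gave -1.02 (adjusted p = 0.000147), and without the 4 diaphragm libraries of over 10000 CPM Alb it was -0.57 and did not pass (adjusted p = 0.0572). That value rests on 1 WT diaphragm library, assumed to vary like the other groups. Diaphragm Pik3c2b was 30.6 CPM in that library, WT replicate 3, and 16.1 to 23.4 CPM in the 3 WT libraries with more Alb.

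**Figure D4:**
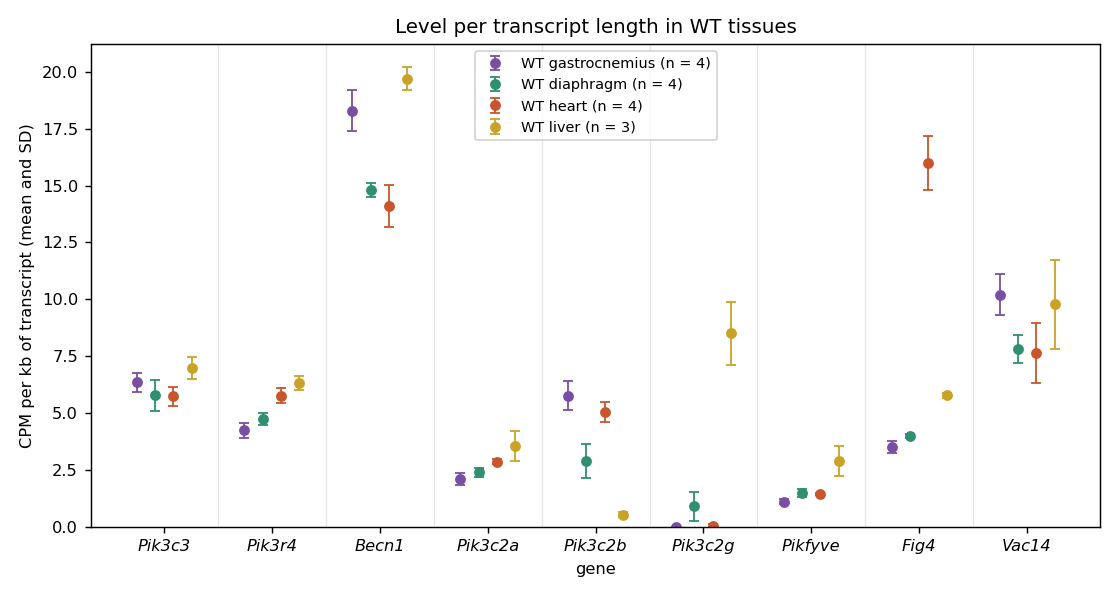
Level in CPM per kilobase of the longest coding transcript for the 9 genes in the 4 WT tissues, as the mean (point) and SD (bar) over 4 libraries, or 3 for the liver. Becn1 leads in the gastrocnemius, diaphragm and liver (14.8 to 19.7) and Fig4 in the heart (16.0), while Pik3c2b averages 0.534 in the liver and Pik3c2g reaches 8.5 there.

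Pik3c2g (ENSMUSG00000030228, chr6:139587221-139969284, plus strand), the class II gamma enzyme and known as a liver isoform, was measured almost only in the liver. Its counts were 941, 1020 and 826 in the WT liver and 797, 687, 1059 and 1642 in Mtm1-/y, or 30.6, 41.8 and 40 CPM and 35.2, 31.8, 44.9 and 52.2 CPM, with overlapping genotypes. The WT gastrocnemius gave 0, 0, 1 and 0 counts and the Mtm1-/y gastrocnemius 2, 1, 5 and 1, where 3 counts in a library equal 0.0777 to 0.101 CPM. The WT heart gave 2, 4, 4 and 21 counts and the Mtm1-/y heart 3, 9, 4 and 2. By pooled counts per total, the WT liver held 112 times the WT heart level (exact 95% interval 78.8 to 165, counting error only), or 261 times (142 to 546) without WT heart replicate 4, which held 21 of the 31 heart counts, and 4220 times the WT gastrocnemius level (757 to 167000, from a single gastrocnemius count).

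The diaphragm values of Pik3c2g moved with Alb, the main transcript of hepatocytes. Pik3c2g counts were 250, 235, 5 and 160 in the WT diaphragm and 26, 254 and 14 in Mtm1-/y replicates 1, 2 and 4. In the same order Alb stood at 27.7%, 17.4%, 0.293% and 20.5% of the mean WT liver level in WT, and at 1.88%, 33.0% and 0.603% in Mtm1-/y. The 4 libraries with the most Alb were the 4 with the most Pik3c2g. Per 1000 Alb counts, Pik3c2g came to 0.29, 0.315, 0.555 and 0.248 in the WT and 0.333, 0.32 and 0.625 in the Mtm1-/y diaphragm. The livers gave 0.262, 0.375 and 0.294 in WT and 0.235, 0.223, 0.293 and 0.403 in Mtm1-/y. The 5 diaphragm libraries with the most Alb lay within the liver range, and the 2 with the least Alb, which had 5 and 14 Pik3c2g counts, lay above it with exact Poisson intervals (0.18 to 1.29 and 0.342 to 1.05) that reached into it. The genotype log2FC in the diaphragm was -0.24 (95% interval -3.51 to 3.02) and, with log2 CPM of Alb as a covariate, 0.15 (SE 0.2462). Heart against diaphragm gave -4.18 in WT, which became 0.60 without the 4 high-Alb libraries (adjusted p = 0.732).

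**Figure D5:**
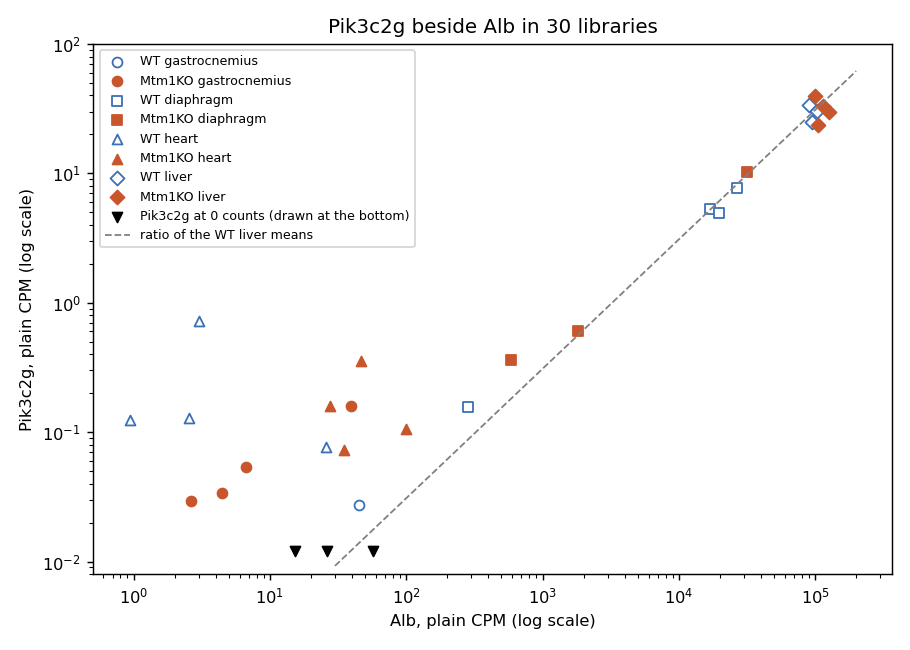
Pik3c2g against Alb, both in CPM of the library total on log axes, for the 30 libraries by tissue and genotype, with libraries at 0 Pik3c2g counts drawn at the bottom and a dashed line at the ratio of the WT liver means. The 5 diaphragm libraries with 1816 CPM of Alb or more lie close to the line, the 2 with 283.6 and 582.7 CPM lie above it, and WT heart replicate 4, with 21 Pik3c2g and 88 Alb counts, lies farther above it.

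The class III genes and Pik3c2a and Vac14 varied less between WT tissues. Pik3c3 had WT means of 22.7 ± 1.59 CPM in the liver (SD, n = 3), 20.7 ± 1.38 in the gastrocnemius, 18.8 ± 2.2 in the diaphragm and 18.7 ± 1.39 in the heart (n = 4 each). Liver exceeded heart by 0.25 (adjusted p = 0.035) and diaphragm by 0.23 (adjusted p = 0.0476), and with library totals both turned, to -0.31 and -0.25. Pik3r4 went from 20.2 ± 1.55 CPM in the gastrocnemius through 22.5 ± 1.28 in the diaphragm and 27.5 ± 1.59 in the heart to 30.0 ± 1.5 in the liver. Heart exceeded gastrocnemius by 0.41 (adjusted p = 0.000274), while liver over heart turned with library totals. Becn1 was 79.9 ± 3.93 and 85.9 ± 2.25 CPM in gastrocnemius and liver and 64.6 ± 1.34 and 61.5 ± 4.03 in diaphragm and heart. The heart was lower than the gastrocnemius by TMM (log2FC -0.41, adjusted p = 0.000124) and not by library totals (0.18). Pik3c2a rose from 17.1 ± 2.1 CPM in the gastrocnemius to 28.6 ± 5.16 in the liver (log2FC 0.67), with 19.3 ± 1.59 in the diaphragm and 23.0 ± 0.882 in the heart. WT Vac14 was higher in the gastrocnemius than in the heart by TMM (log2FC -0.46 for heart against gastrocnemius, adjusted p = 0.00992). By library totals the sign turned and the difference did not pass (0.13, adjusted p = 0.392 by edgeR).

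The members that passed in each WT contrast numbered 6 of 9 for heart against gastrocnemius, where 61.3% of all genes passed, and 5 of 9 for diaphragm against gastrocnemius, where 54.4% did. Liver against gastrocnemius passed for 6 of 9 and 79.5% of all genes, and heart against diaphragm for 4 of 9 and 51.7%. Liver against heart passed for 6 of 9 and 76.4%, and liver against diaphragm for 8 of 9 and 76.1%. The background was of the same order in every contrast. Library totals moved the median log2FC of all genes by 0.59 for heart and 0.52 for diaphragm against gastrocnemius, and by -0.55 and -0.48 for liver against heart and diaphragm. The share of calls that were higher then went from 53.1% to 80.6%, 56.3% to 87.7%, 46.6% to 29.0% and 46.7% to 28.0%.

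Per kilobase of the longest coding transcript, the order of the 9 genes differed between tissues in its upper ranks. In the WT gastrocnemius it began with Becn1 (18.3 CPM per kilobase), Vac14 (10.2) and Pik3c3 (6.36), and it ended with Pikfyve (1.1) and Pik3c2g. In the heart Fig4 (16.0) stood above Becn1 (14.1) and Vac14 (7.63). In the liver Becn1 (19.7) and Vac14 (9.79) were followed by Pik3c2g (8.5), and Pik3c2b (0.534) was last. The catalytic Pik3c3 was at 5.73 to 6.98 CPM per kilobase in every WT tissue, and Pikfyve, which uses its product, at 1.1 to 2.9. With merged exon lengths the first gene of each tissue was the same, but lower ranks changed. Second place went from Vac14 to Pik3c2b in the gastrocnemius, to Pik3c3 in the diaphragm and to Fig4 in the liver, where Pik3c2g fell below Pik3r4.

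Other genes of the pathway were described by lists. In the gastrocnemius their TMM shares are read against the 29.0% of all genes that passed with TMM. With library totals 53.7% of all genes passed, 92.2% of those calls were higher, and the list counts under that scaling are read against these. Of 11 partners of the class III kinase, 1 rose and 2 fell with TMM, while 6 rose and 1 fell with library totals. Rab7, the small GTPase of late endosomes, went from 202 ± 18.7 to 140 ± 8.35 CPM (SD, n = 4 each, log2FC -0.51, adjusted p = 0.00129), and it stayed lower with library totals. Rab5b, an early endosome GTPase, had a log2FC of -0.35 (adjusted p = 0.00314) and -0.02 with library totals, and Rab5a had 0.29 (adjusted p = 0.049), a call that was lost with DESeq2 (adjusted p = 0.0527) and with its size factors in edgeR (adjusted p = 0.0537). The list median was 0.01, against 0.02 for all genes. Of 19 tested proteins that bind PI3P, 2 rose and 2 fell with TMM, while 14 rose and 0 fell with library totals. Zfyve9, an endosomal FYVE protein of the TGF-beta pathway, went from 75.2 ± 4.12 to 53.4 ± 2.63 CPM (log2FC -0.48, adjusted p = 0.000703, and -0.15 with library totals). Rbsn, an endosomal fusion protein, had -0.34 (adjusted p = 0.00901, and -0.01 with library totals). Ncf4, a PX-domain subunit of the phagocyte oxidase, had 0.75 (adjusted p = 0.0117), beside macrophage markers that were higher in the same libraries, and their part was not tested. Wipi1, an autophagy protein, had 0.33 (adjusted p = 0.0196).

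Of 8 tested phosphatases that act on the 3-phosphate of PI3P, Mtm1 included, 5 fell and 1 rose in the gastrocnemius with TMM, and 1 fell and 3 rose with library totals. The fallen genes besides Mtm1 included Mtmr3 (log2FC -0.40, adjusted p = 0.00265), Mtmr6 (-0.29, adjusted p = 0.0103) and Mtmr14 (-0.27, adjusted p = 0.0389), members of the myotubularin family. With library totals these values were -0.06, 0.04 and 0.07. The gene that rose with TMM was Mtmr7 (log2FC 0.81, adjusted p = 0.0433 by edgeR). Its call was lost with DESeq2 (adjusted p = 0.117) and with limma voom (adjusted p = 0.0556). The list median was -0.25. Of 3 tested lysosomal channels opened by PI(3,5)P2, 0 passed by edgeR with TMM or by DESeq2, where 29.0% and 16.2% of all genes did. An unadjusted p under 0.05 was found for 1 of them, where edgeR gave it for 41.6% of all genes. With TMM, Tpcn1 had 84.7 ± 3.07 CPM in WT and 76.3 ± 6.47 in Mtm1-/y, and Mcoln1 31.2 ± 2.29 and 28.3 ± 2.61. With library totals all 3 channels passed as higher, Mcoln1 at 0.21 (adjusted p = 0.0329), Tpcn1 at 0.20 (adjusted p = 0.0479) and Tpcn2 at 0.79 (adjusted p = 0.0128), so the signs of Mcoln1 and Tpcn1 turned with the scaling.

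Outside the gastrocnemius, Mtm1 was the only gene of these 4 lists that passed by edgeR, in the diaphragm and heart. In the liver its log2FC of -1.60 had an adjusted p of 0.365 with an unadjusted p of 7.66e-05, and it passed by DESeq2. At an unadjusted p under 0.05, edgeR counted only Bcl2 in the liver among the partners, Zfyve26 in the heart among the binders, and Mtm1 in all 3 organs with Mtmr3 in the heart among the phosphatases. Averaged over the 4 tissues, Mtmr14 passed beside Mtm1 (log2FC -0.20, adjusted p = 0.0313 by edgeR). They were 2 of the 8 phosphatases tested, where 4.78% of all genes passed.

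Genes with the most similar levels to each member were ranked by Pearson's r of log2 CPM over the 30 libraries among 14056 genes, as a description that follows the tissues. Pik3c2g was closest to Cyp4v3, Apoe and Sardh (r = 0.992 each), and Fig4 to Intu (0.983), Slc35f6 and Tmx4 (0.98 each). Pik3c2b was closest to Fyco1 (0.982), Gzmm (0.981) and Gm49759 (0.98), and Pikfyve to Cflar (0.971), Eif2ak3 (0.965) and Fndc3a (0.961). The members that varied less between WT tissues had lower values, though Becn1 came close to Pikfyve. Becn1 was closest to Cdc123 (0.958), Eif4b (0.95) and Bccip (0.94), Pik3r4 to Sap130 (0.912), Plekha5 (0.905) and Golim4 (0.896), and Pik3c2a to Fam208a (0.906), Zfp148 (0.894) and Zzef1 (0.891). Vac14 was closest to Nsfl1c (0.851), Srrm4os (0.848) and Psmd13 (0.844), and Pik3c3 to Zkscan17 (0.847), Farp2 and Actr8 (0.83 each).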

How the data were processed

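Polyadenylated RNA from 30 samples was sequenced, and the authors deposited 1 table of raw read counts per gene (36103 Ensembl genes). The submitters' processing notes name cutadapt 1.10, STAR 2.5.3a, HTSeq 0.6.1p1 and mm10. The study used Ensembl release 96, a stranded kit and 350 ng of RNA. The strand setting of the counting is not given in the sources used here. Reads came without molecular identifiers, so intervals on counts cover counting error only. Totals were 24873817 to 44289343 per library.

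From the counts, edgeR 4.0.16 (R 4.3.3) fitted quasi-likelihood models after filterByExpr (count minimum 10) and TMM, with Benjamini-Hochberg adjustment over all genes tested. Each tissue was fitted alone for genotype, the 15 WT libraries together for tissues, pairs of tissues for differences of the genotype effect, and all 30 libraries for the mean effect. Samples were grouped by their labels, and within a group each library was 1 mouse. Whether the tissues came from the same mice is not given in the sources used here. The main fits treated all libraries as independent, also across tissues. In the fit of the mean effect, the replicate block joined genotypes within a tissue and did not model a mouse across tissues. To see whether replicate numbers mark pairs, the deviations of each library from its group mean were correlated between libraries, not the levels themselves. Same-numbered WT and Mtm1-/y libraries gave -0.045 to 0.157 in the gastrocnemius and -0.73 to 0.573 in the diaphragm. They gave -0.538 to 0.307 in the heart and -0.048 to 0.295 in the liver. Between tissues the values were -0.161 to 0.35 in WT and -0.255 to 0.21 in Mtm1-/y. No pair of groups had every correlation over 0.1, so the numbers were not taken as pairs. Intervals are at 95%, and log2FC standard errors come from the F statistic. Alternatives were DESeq2 1.42.0, its size factors in edgeR, limma 3.58.1 voom with sample weights, no filter, a replicate block, a fold minimum, other sets of libraries and each library left out. Library totals without TMM, diaphragm libraries of over 10000 CPM Alb left out, Alb as a covariate, merged exon lengths and the Pik3c2g ratio without WT heart replicate 4 were added after seeing the data. Levels per length used the longest coding GENCODE transcript. The gene names of the 9 members were given, all members are named, and of each pathway list up to 4 passing genes with the smallest p, or the 2 most abundant where none passed, plus the 3 most similar genes of each member; Bcl2, Zfyve26 and the other genes given only as unadjusted counts were named after their values were seen. Mtmr7 was also named after its values were seen. The members, lists and markers were chosen with earlier results of these data known. The fits were tested on simulated data.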

Additional observations from a re-analysis of the deposited data

Results flagged for a closer look

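In groups of 4, a library was singled out when its gap to the nearest other, as a share of the group's range, was past Dixon's 95% critical value, which chance gives in about 1 of 20 groups, and 4 of 54 groups were singled out. Pik3c2a was 17.2 CPM in Mtm1-/y gastrocnemius replicate 3 and 12.7 to 12.9 in the other 3, and the difference between genotypes passed without that library. Pik3c2a was also 24.4 CPM in WT heart replicate 2 and 22.6 to 22.7 in the other 3, a small gap in CPM. Pik3c2g was 0.562 CPM in WT heart replicate 4 and 0.0631 to 0.112 in the other 3. It was 0.0324 CPM in WT gastrocnemius replicate 3, from 1 count, and 0 in the other 3.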

How the results depend on the processing

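Vac14 in the gastrocnemius passed in the 7 other fits run for it (log2FC 0.59 to 0.94), though not with a log2FC over 1 also required, and with any 1 of the 8 libraries left out (0.54 to 0.67). The members passing in the gastrocnemius were 1 in the main setting and 0 with a log2FC over 1 also required. They were 2 with the replicate block (Pik3c2a as well, adjusted p = 0.0356 by edgeR) and 7 with library totals. Of all genes, 29.0% passed in the main setting and 53.7% with library totals. Replicate numbers were not taken as pairs, and 4 of 8 gastrocnemius, 1 of 6 diaphragm, 2 of 8 heart and 4 of 6 liver libraries were closest to their own number. For the mean over tissues the counts were 0 with the fold minimum and 0 with the replicate block (Vac14 adjusted p = 0.0942 by edgeR). They were 2 with DESeq2, limma voom or library totals. Of all genes, 4.68% passed with DESeq2 and 14.6% with limma voom. Library totals called 1599 of 18498 genes higher and 190 lower. With the fold minimum, 1, 2 and 3 members passed for WT heart, diaphragm and liver against gastrocnemius. Of 17725 genes, the same rule passed 3136 higher and 2543 lower, 3334 and 1409, and 4555 and 5492. Heart against diaphragm passed 2 members, with 1565 genes higher and 3218 lower. Liver against heart passed 3, with 3940 and 5418 genes, and liver against diaphragm 2, with 3446 and 5415. Without the high-Alb diaphragm libraries, diaphragm against gastrocnemius passed 0, heart against diaphragm 1 and liver against diaphragm 5, with fewer samples, and library totals gave 3 for liver against diaphragm. For liver against diaphragm, library totals called 3731 of 17725 genes higher and 9589 lower. Differences of the genotype effect passed 1 with DESeq2 (12.6% of all genes), 1 with limma voom (24.0%) and 4 with library totals for the heart. For the liver they passed 1 with DESeq2 (5.92%), 1 with all 30 libraries and 3 with library totals. Library totals called 405 of 16627 genes higher and 6577 lower for the heart, and 135 and 3447 of 17179 for the liver. Shares for the other fits, those with a library left out included, are not given, and nothing is read from those counts.

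Leaving out 1 library at a time, 1 to 3 members passed in the gastrocnemius, 0 to 0 in diaphragm, heart and liver, 5 to 7 for heart and 4 to 7 for diaphragm against gastrocnemius, 6 to 6 for liver against gastrocnemius, 3 to 5 for heart against diaphragm, 5 to 8 for liver against heart and 7 to 8 for liver against diaphragm. For differences of the genotype effect they were 0 to 1 (heart), 0 to 0 (diaphragm) and 0 to 1 (liver), and 1 to 2 for the mean. Vac14 in diaphragm against gastrocnemius lost its call without any 1 of 5 libraries. Its heart difference passed in 1 of 16 such fits, the one without WT heart replicate 4 (adjusted p = 0.0389 by edgeR).

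Library totals reversed the sign of 14 member values that passed with TMM or with library totals, and turned others that passed with neither. For genotype in the gastrocnemius these were Pik3c3 (0.26) and Becn1 (0.22). For heart against gastrocnemius they were Pik3c3 (0.41), Becn1 (0.18) and Vac14 (0.13), and for diaphragm against gastrocnemius Pik3c3 (0.35), Becn1 (0.19) and Vac14 (0.10). For liver against heart they were Pik3c3 (-0.31), Pik3r4 (-0.46) and Becn1 (-0.11), and for liver against diaphragm Pik3c3 (-0.25), Pik3r4 (-0.10) and Becn1 (-0.11). Leaving out the high-Alb libraries reversed Pik3c2g for heart against diaphragm (0.60). Of the member log2FC under alternatives, 2509 kept direction and side of the threshold, 33 passed in neither setting and moved, 69 came to pass, 46 no longer passed and 15 reversed.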
